A study of Homo sapiens with 18 samples.

Results

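The S100 genes encode small EF-hand proteins that bind calcium and then dock on partner proteins. The members followed here were S100A2, S100A4, S100A6, S100A7, S100A8, S100A9, S100A10, S100A11, S100A14 and S100P. They were chosen by symbol, as the entries whose gene ID belongs to 1 of these names, and all 10 members had an entry among the 23604 gene entries of the RNA-Seq files. The cells were MCF10A-ErSrc, a human breast epithelial line that is not tumorigenic and carries v-Src fused to a ligand-binding domain of the oestrogen receptor, so that tamoxifen switches the kinase on and the cells become transformed. Cells without tamoxifen (NT) or with it (TAM) were given DMSO or triptolide (TPL; TPL-125nM in the labels) for 4 h. TPL is a plant diterpenoid that binds XPB, an ATPase of the transcription factor TFIIH, and blocks the start of transcription by RNA polymerase II (RNAPII). The 4 conditions are written NT, NT+TPL, TAM and TAM+TPL, and each had 2 RNA-Seq libraries and 1 list of RNAPII ChIP-Seq peaks. All cells, the untransformed ones included, carry the v-Src construct, and every TAM sample also had tamoxifen itself, so the kinase and its ligand cannot be told apart.

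Most S100 genes lie together on chromosome 1, close to genes of the cornified envelope of skin. S100A8 and S100A9 form calprotectin, an antimicrobial complex that binds metal ions and is best known from neutrophils, and that epithelial cells make under inflammatory signals. S100A10 and S100A11 pair with annexins at membranes, S100A2 and S100A14 are typical of stratified and basal epithelium, and S100A4 and S100P are known from invasive tumour cells. On build GRCh37, 9 of the 10 members lie on chromosome 1 between positions 151955391 and 153589462, a span of 1634072 bp that holds 7 of them in its distal cluster. S100P alone lies elsewhere, on chromosome 4 from 6695605 to 6698897.

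The 120 bases before the canonical TSS are printed for 4 members, because S100A8, S100A9 and S100P were higher in TAM cells and S100A10 serves as a contrast at nearly the same level in both. They were read from GRCh37 at chr1:153363550-153363669 (S100A8, minus strand), chr1:153330210-153330329 (S100A9, plus strand), chr4:6695485-6695604 (S100P, plus strand) and chr1:151966336-151966455 (S100A10, minus strand), 5′ to 3′ along the gene. Capitals mark the letters TATAAA, the TATA box, and TTNNGNAA, which resembles the C/EBP motif, searched on both strands.
S100A8: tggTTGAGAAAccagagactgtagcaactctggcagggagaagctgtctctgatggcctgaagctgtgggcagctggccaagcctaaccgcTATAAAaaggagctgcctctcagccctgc
S100A9: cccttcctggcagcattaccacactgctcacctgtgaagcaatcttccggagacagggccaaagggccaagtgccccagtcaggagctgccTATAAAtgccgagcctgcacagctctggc
S100P: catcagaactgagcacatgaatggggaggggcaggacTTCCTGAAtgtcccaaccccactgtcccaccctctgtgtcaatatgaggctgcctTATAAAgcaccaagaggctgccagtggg
S100A10: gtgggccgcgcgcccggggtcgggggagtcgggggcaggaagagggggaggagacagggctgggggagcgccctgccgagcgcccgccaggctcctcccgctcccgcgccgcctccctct

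The first 3 of these hold TATAAA at the distance usual for a TATA box, ending 24 bases before the start in S100A8 and S100A9 and 23 bases before it in S100P. In the 250 bases before the start, TATAAA was found in 5 of the 10 members (S100A4, S100A7, S100A8, S100A9 and S100P) and in 9.26% of 19869 protein-coding promoters. Only these exact letters were searched. S100A6 and S100A14 hold the variant TATAAG close to the start, and that variant was not counted over all promoters. TTNNGNAA was found in 5 members (S100A6, S100A8, S100A9, S100A11 and S100P) and in 26.2% of the promoters. The AP-1 motif stood in S100A2 alone among the members, with 4.70% of all promoters holding it, and an NF-kB-like motif in S100A14 alone, with 5.57% of all. CCAAT was in 0 of 10 members and in 34.3% of promoters. Matches of different motifs did not overlap each other. G and C made up 55.8% of the printed bases of S100A8, 59.2% of those of S100A9, 55.0% in S100P and 80.8% in S100A10, beside a median of 66.7% over all promoters. These matches describe the letters in the window and were not tested as binding sites.

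The RNA-Seq libraries held between 7461309 and 8349448 expected counts. With all entries of S100A8 included, the 10 members took 0.492% and 0.399% of them in NT, 0.324% and 0.417% in NT+TPL, 0.712% and 0.771% in TAM, with 0.802% and 0.809% in TAM+TPL. The epithelial identity of the line was checked with 8 markers, and KRT5, KRT14, KRT17, KRT8, KRT18, CDH1, EPCAM and TP63 were detected in all 8 libraries. TP63 was low with TPL, at a mean of 0.46 FPKM in NT+TPL and 0.735 in TAM+TPL, against 18.4 in NT and 23.6 in TAM. The summed level of the 8 markers was 13238 to 15010 FPKM in NT, 9500.0 to 11570.3 in NT+TPL, 3511 to 3696 in TAM and 1890.5 to 2040 in TAM+TPL, with the basal keratin KRT5 between 6250 and 434 FPKM. Fibroblast and endothelial markers were at or near 0, with PDGFRB at most at 0.09 FPKM and VWF at most at 0.04 FPKM, COL1A1 reaching 6.14 and PECAM1 1.69. The NT+TPL libraries were the least alike of the 4 pairs, and this shows in several members below. All values are shares of a library without a spike-in, and in bulk samples fewer cells of a type and less RNA per cell cannot be told apart.

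Levels between genes are compared on the FPKM scale, which divides by transcript length. In NT cells the order of the mean levels was S100A11 at 2778 ± 484 FPKM (SD, n = 2), S100A2 at 1154 ± 186, S100A10 at 679 ± 89.3, S100A14 at 569.9 ± 51.5 and S100A6 at 537 ± 42.4, followed by S100A9 at 103 ± 24.0 and S100P at 14.3 ± 2.51. S100A8 by its gene ID entry, S100A4 and S100A7 were under 10.5 FPKM in both libraries. The ranges of S100A14 and S100A6 overlapped, and the other neighbours did not. In TAM cells S100A9 had moved to the second place behind S100A11, and in TAM+TPL to the first, while the place of S100A14 dropped from the fourth to the sixth. S100A8 enters this order by its gene ID entry alone. Its 5 entries summed measured 1761 and 1903 FPKM in TAM and 2649 and 2382 in TAM+TPL. That is above S100A6, which held the third place in both, so with the sum S100A14 would stand lower still. By rank among all entries of a library, S100A9 stood at 561 and 756 in NT, at 559 and 275 in NT+TPL, at 14 and 20 in TAM, with 10 and 6 in TAM+TPL.

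**Figure D1:**
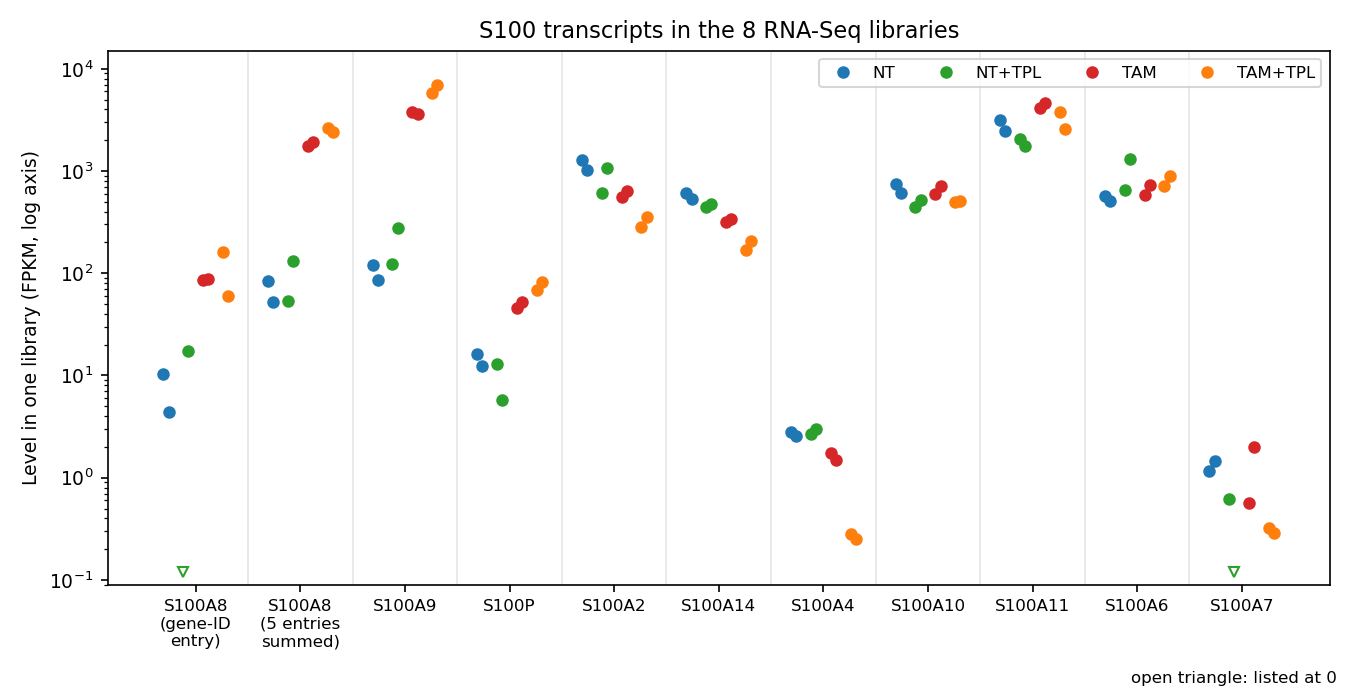
Level of each member in each of the 8 RNA-Seq libraries (FPKM, log axis), coloured by condition, with S100A8 drawn both for its gene ID entry and for its 5 entries summed. S100A8, S100A9 and S100P sit higher in all 4 TAM libraries than in all 4 NT libraries, S100A14 sits lower in them, and open triangles mark libraries where a gene is listed at 0.

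Of the 10 members, 9 passed the filter on low counts and were tested, and S100A7 did not. A call needed an adjusted p not above 0.001 together with a change of 1.2 or more on the log2 scale in either direction, and a member is said to have passed, risen or fallen at an adjusted p of at most 0.05 in edgeR's quasi-likelihood test over 16948 genes with Benjamini-Hochberg adjustment. With TPL in NT cells 0 members were called (3.93% of all genes were) and none passed the looser threshold, as 0 rose (higher: 17.2% of all genes) and 0 fell (lower: 19.8%). At an unadjusted p under 0.05 stood 4 of the 9 members and 8108 of 16948 genes. With TPL in TAM cells 0 were called (2.88% of all genes) and 2 fell at 0.05 (lower: 18.6% of all genes), S100A14 and S100A4. Between TAM and NT cells with DMSO 0 were called (0.655% of all genes), 2 rose (higher: 3.46% of all genes), S100A9 and S100P, and 1 fell (lower: 3.39%), S100A14. With TPL in both, 0 were called (0.596%), 2 rose (2.83%), S100A9 and S100P, and 2 fell (4.21%), S100A14 and S100A2. S100A9 missed the call in both of these with an adjusted p just above 0.001. DESeq2 called 2 members with DMSO and 4 with TPL, where it also called 4.48% and 4.20% of all genes. For TPL against DMSO it called 0 members in either cell type, where it called 15.1% (NT) and 13.4% (TAM) of all genes. The count in limma was 0 as well. Its shares of all genes were 6.34% (NT) and 4.90% (TAM) on log2(FPKM + 1), and 5.26% and 3.68% on log2(FPKM + 0.1). Without a filter the first of these gave 1.17% and 0.525%.

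The members with the largest change were the calprotectin pair. S100A9 measured 120.1 and 86.1 FPKM in NT, 124.5 and 275 in NT+TPL, 3769.5 and 3588 in TAM, with 5736 and 6868 in TAM+TPL. Every TAM library lay above every NT library by more than a factor of 10. S100A9 rose in TAM over NT cells by a log2 fold change of 5.17 ± 0.44 (SE; a fold of 36.1) with DMSO, at an adjusted p of 0.00104 in edgeR, and by 4.94 ± 0.43 (a fold of 30.7) with TPL, at an adjusted p of 0.00120. It passed 0.05 in 21 of 21 alternative settings in each comparison, at adjusted p-values from 4.79e-55 to 0.0160 with DMSO.

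With TPL both S100A9 libraries lay above both DMSO libraries, in NT cells as in TAM cells, but neither difference passed the test. The log2 fold change was 0.96 ± 0.38 in NT cells (adjusted p = 0.0854, edgeR, or 0.0286 with the entries of each symbol summed) and 0.73 ± 0.36 in TAM cells (adjusted p = 0.164). DESeq2 gave adjusted p-values of 0.00902 and 0.0490 for them. Without NT+TPL replicate 2 the change in NT cells was 0.24. The difference between the TPL effects was -0.23 ± 0.52, with an adjusted p of 0.917.

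S100A8 needs its entries to be read together. Its gene ID entry held between 0% and 15.5% of the counts assigned to the gene, and 4 further entries, each a single transcript, held the rest, with 1 of these taking from 81.1% to 95.02%. By the gene ID entry alone, S100A8 was at 10.3 and 4.43 FPKM in NT, at 0 and 17.4 in NT+TPL, at 85.5 and 87.1 in TAM, with 161 and 60.2 in TAM+TPL, and no difference passed the test, the closest being a log2 fold change of 3.61 ± 1.16 in TAM over NT cells with TPL at an adjusted p of 0.130. Which of the overlapping entries a read belongs to was estimated by the authors' software, so the split between them is uncertain.

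Summed over the 5 entries, S100A8 measured 84.4 and 51.8 FPKM in NT, 53.4 and 130.45 in NT+TPL, 1761 and 1903 in TAM, with 2649 and 2382 in TAM+TPL. The sums run parallel to S100A9, with all TAM libraries more than 10 times above all NT libraries. In a fit in which the entries of every symbol were summed, S100A8 rose in TAM over NT cells by a log2 fold change of 4.75 ± 0.40 with DMSO (adjusted p = 1.42e-05, edgeR, 15763 genes) and by 4.72 ± 0.40 with TPL (adjusted p = 1.49e-05). Both S100A8 and S100A9 were then called with DMSO (2 members, where 2.94% of all symbols were called), and S100A14 and S100P joined them with TPL (4 members, where 2.59% were called). With TPL against DMSO the summed S100A8 changed by 0.43 ± 0.37 in NT cells (adjusted p = 0.343) and by 0.41 ± 0.34 in TAM cells (adjusted p = 0.352), neither past the test.

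In the summed fit more members passed 0.05, and so did more symbols in all. With TPL in NT cells S100A6 and S100A9 passed as higher and S100A10 and S100A11 as lower, 4 of 9 where 47.6% of all symbols passed. In TAM cells 3 of 9 passed as lower, S100A2 (adjusted p = 0.0142), S100A4 and S100A14, where 43.9% of all symbols passed. Between the cell types with DMSO 3 passed as higher and 2 as lower, S100A14 and S100A2 (adjusted p = 0.0394), where 10.7% of all symbols passed, and under TPL 3 passed as higher and 3 as lower, with S100A4 (adjusted p = 0.0245) as the addition, where 11.9% passed.

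**Figure D2:**
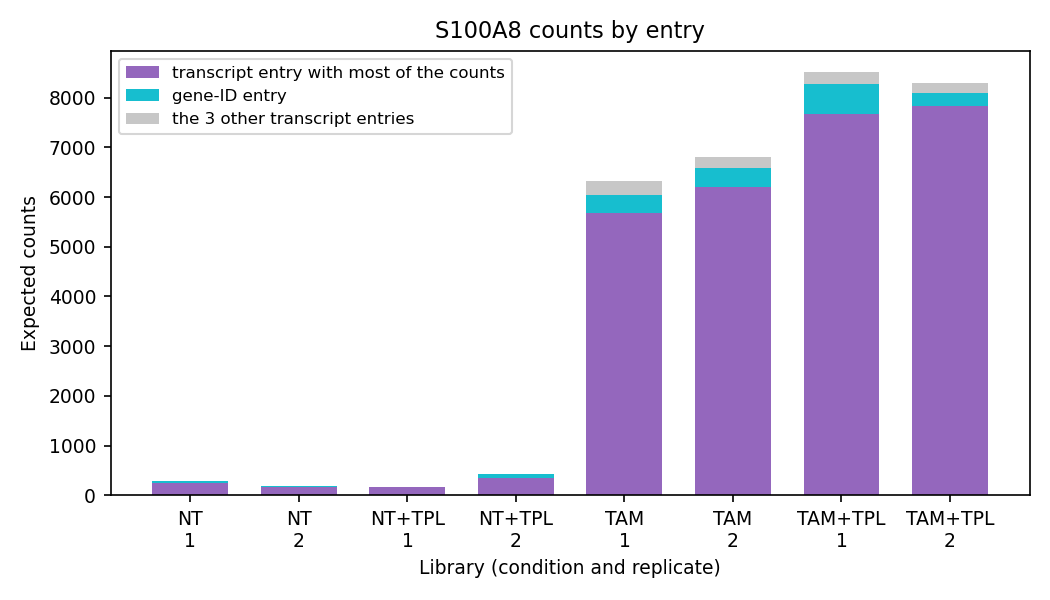
Expected counts of S100A8 in each library, stacked by entry: the single transcript entry that takes most of the counts, the gene ID entry, and the other 3 transcript entries. The totals are 298 and 180 in NT, 174 and 429 in NT+TPL, 6324 and 6797 in TAM, with 8517 and 8288 in TAM+TPL.

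Myeloid cells, the best known source of calprotectin, were looked for with 6 markers. Their summed level was 44.3 and 29.3 FPKM in NT, 61.6 and 70.4 in NT+TPL, 29.6 and 25.7 in TAM, with 57.7 and 60.7 in TAM+TPL, so it was not higher in TAM than in NT cells. PTPRC, the pan-leukocyte marker CD45, reached at most 2.14 FPKM, CSF1R 2.57 and FCGR3A 0.18, and FCGR3A was listed at 0 in 7 of 8 libraries. LYZ, between 17.9 and 47.2 FPKM, and CD14, between 5.75 and 18.6 FPKM, were detected in all 8 libraries. Of 5 myeloid markers tested, 0 rose in TAM over NT cells in either setting and 1, CD14, fell with TPL in both (log2 fold change -1.37 ± 0.21; lower: 4.21% of all genes). With TPL 2 of the 5 rose in each cell type, where 17.2% of all genes (NT cells) and 2431 of 16948 genes (TAM cells) rose. ITGAM, an integrin subunit, went from 0.03 and 0.05 FPKM in NT to 6.16 and 5.20 in NT+TPL and from 0.05 and 0.02 in TAM to 9.82 and 8.50 in TAM+TPL. The third gene of the calgranulin group, S100A12, had 2 and 1 counts in NT, 0 and 0 in NT+TPL, 7 and 15 in TAM, with 7 and 7 in TAM+TPL, too few for the filter, and with TPL it was at least 2.28-fold higher in TAM than in NT cells, taking 3 counts per library as the floor.

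S100P, a calcium-binding ligand of ezrin and of the receptor AGER, rose in the same direction from a much lower level. It measured 16.1 and 12.5 FPKM in NT, 12.9 and 5.74 in NT+TPL, 45.3 and 52.6 in TAM, with 69.1 and 81.9 in TAM+TPL. The TAM libraries all lay above the NT libraries. The log2 fold change of TAM over NT cells was 1.79 ± 0.34 with DMSO (a fold of 3.46, adjusted p = 0.0250, edgeR) and 2.99 ± 0.36 with TPL (a fold of 7.97, adjusted p = 0.00436). The first of these passed 0.05 in 13 of 21 alternative settings, and the second in 21 of 21. Of the 8 settings that leave out a library, the first passed 0.05 in 2, those without NT+TPL replicate 1 or 2.

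The estimated change of S100P with TPL had a different sign in the 2 cell types and did not pass the test in either. Its log2 fold change was -0.63 ± 0.35 in NT cells, where the groups overlapped (adjusted p = 0.199, edgeR), and 0.58 ± 0.32 in TAM cells, where both TPL libraries were higher (adjusted p = 0.201). The difference between these effects was 1.21 ± 0.48, with an adjusted p of 0.452. No member passed the test of that difference at 0.05 (0.165% of all genes did) in edgeR, and 0 were called (0% of all genes). By DESeq2 0 were called as well, where it called 0.983% of all genes. An unadjusted p under 0.05 in edgeR was found for 3 of 9 members, S100A4, S100A14 and S100P, and for 1799 of 16948 genes.

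The epithelial members went the other way. S100A14, a gene of stratified epithelium, measured 606 and 534 FPKM in NT, 449 and 477 in NT+TPL, 316 and 342 in TAM, with 169 and 207 in TAM+TPL. The 4 conditions did not overlap and stood in this order. S100A14 fell with TPL in TAM cells (log2 fold change -0.86 ± 0.15, a level 0.551 times that with DMSO, adjusted p = 0.00699, edgeR), whereas in NT cells its change of -0.31 ± 0.15 did not pass (adjusted p = 0.157). In TAM against NT cells it fell with DMSO (-0.77 ± 0.15, adjusted p = 0.0297) and with TPL (-1.33 ± 0.16, adjusted p = 0.00416). Without TAM+TPL replicate 1 the fall with TPL in TAM cells had an adjusted p of 0.0583 and that between cell types with TPL 0.0505, and the fall between cell types with DMSO kept an adjusted p of at most 0.05 in 2 of the 8 settings that leave out a library, those without NT+TPL replicate 1 or 2.

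S100A2, a nuclear S100 protein of basal epithelium that can bind p53 and p63, measured 1286 and 1023 FPKM in NT, 613 and 1077 in NT+TPL, 554 and 633 in TAM, with 284 and 358 in TAM+TPL. The TAM libraries were below the NT libraries under each treatment, and TPL libraries were below DMSO libraries in TAM cells but overlapped them in NT cells. S100A2 fell in TAM against NT cells with TPL (log2 fold change -1.43 ± 0.30, adjusted p = 0.0360, edgeR). With DMSO the change was -0.94 ± 0.30 (adjusted p = 0.129), and with TPL in TAM cells it was -0.94 ± 0.30 at an adjusted p of 0.05003, just above the threshold. The fall with TPL between cell types kept an adjusted p of at most 0.05 in 11 of 21 settings and in 1 of the 8 that leave out a library, the one without NT+TPL replicate 1, and without NT+TPL replicate 2 it was -0.90. Of 8 epithelial markers 4 fell in TAM against NT cells with DMSO (lower: 3.39% of all genes), KRT5 (-2.18 ± 0.14), KRT17, KRT14 and KRT8, and 0 rose (higher: 3.46%). The other 4 did not pass, with CDH1 at -1.41 ± 0.33, EPCAM at 0.69 ± 0.17, TP63 at 0.36 ± 0.33 and KRT18 at 0.16 ± 0.13. With TPL 3 fell (lower: 4.21% of all genes) and EPCAM rose (0.73 ± 0.17, adjusted p = 0.0464, edgeR; higher: 2.83%). Their part in the changes of S100A14 and S100A2 was not tested.

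The annexin partners were high in all libraries, and 0 of their differences passed the test in the fit by gene ID. S100A10, which forms a tetramer with annexin A2, measured 742 and 616 FPKM in NT, 444 and 516 in NT+TPL, 595 and 716 in TAM, with 503 and 512 in TAM+TPL. S100A11, a partner of annexin A1, measured 3120.4 and 2436 in NT, 2063 and 1750.4 in NT+TPL, 4102 and 4625 in TAM, with 3772 and 2588 in TAM+TPL. For both genes the TPL libraries were below the DMSO libraries in NT cells and in TAM cells, by log2 fold changes between -0.55 and -0.42, and these did not pass the test (adjusted p from 0.0564 to 0.116, edgeR). With summed entries those in NT cells passed, at adjusted p-values of 0.0390 for S100A10 and 0.0494 for S100A11. S100A11 was higher in TAM than in NT cells by 0.67 ± 0.22 with DMSO (adjusted p = 0.140) and by 0.72 ± 0.22 with TPL (adjusted p = 0.111), with libraries that did not overlap in either. S100A10 differed by -0.03 ± 0.17 and 0.05 ± 0.17 between the cell types, the smallest changes of the 9 members tested.

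S100A6, calcyclin, which binds the ubiquitin-ligase adaptor CACYBP, was the only member besides S100A9 whose libraries were all higher with TPL in NT cells. It measured 567 and 507 FPKM in NT, 652 and 1308 in NT+TPL, 586 and 737 in TAM, with 718 and 895 in TAM+TPL. In NT cells the log2 fold change was 0.88 ± 0.34 (adjusted p = 0.0816, edgeR, or 0.0278 with summed entries), and without NT+TPL replicate 2 it was 0.25. In TAM cells the libraries overlapped and the change was 0.24 ± 0.33 (adjusted p = 0.611). Groups on one side of each other are common here: with TPL in NT cells they were found for 2 of the 9 tested members on the higher side (36.4% of all genes) and for 3 on the lower side (32.7%).

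S100A4, metastasin, was close to the detection floor in this line. It had 11 and 10 counts in NT, 10 and 11 in NT+TPL, 7 and 6 in TAM, with 1 and 1 in TAM+TPL. The TAM+TPL libraries alone were near 0. Over both libraries the 13 counts in TAM against 2 in TAM+TPL give a ratio of 6.08, with a 95% exact binomial interval from 1.38 to 55.5 that covers counting error only, and edgeR placed the fall at an adjusted p of 0.0462. That adjusted p exceeded 0.05 in 8 of the 8 settings that leave out a library, control libraries of the NT cells included, with values from 0.0839 to 0.190. S100A7, psoriasin, had 4 and 5 counts in NT, 2 and 0 in NT+TPL, 2 and 7 in TAM, with 1 and 1 in TAM+TPL, and no difference is readable at this depth. Reads of S100A7 can also be shared with its near copy S100A7A, which reached at most 0.03 FPKM.

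**Figure D3:**
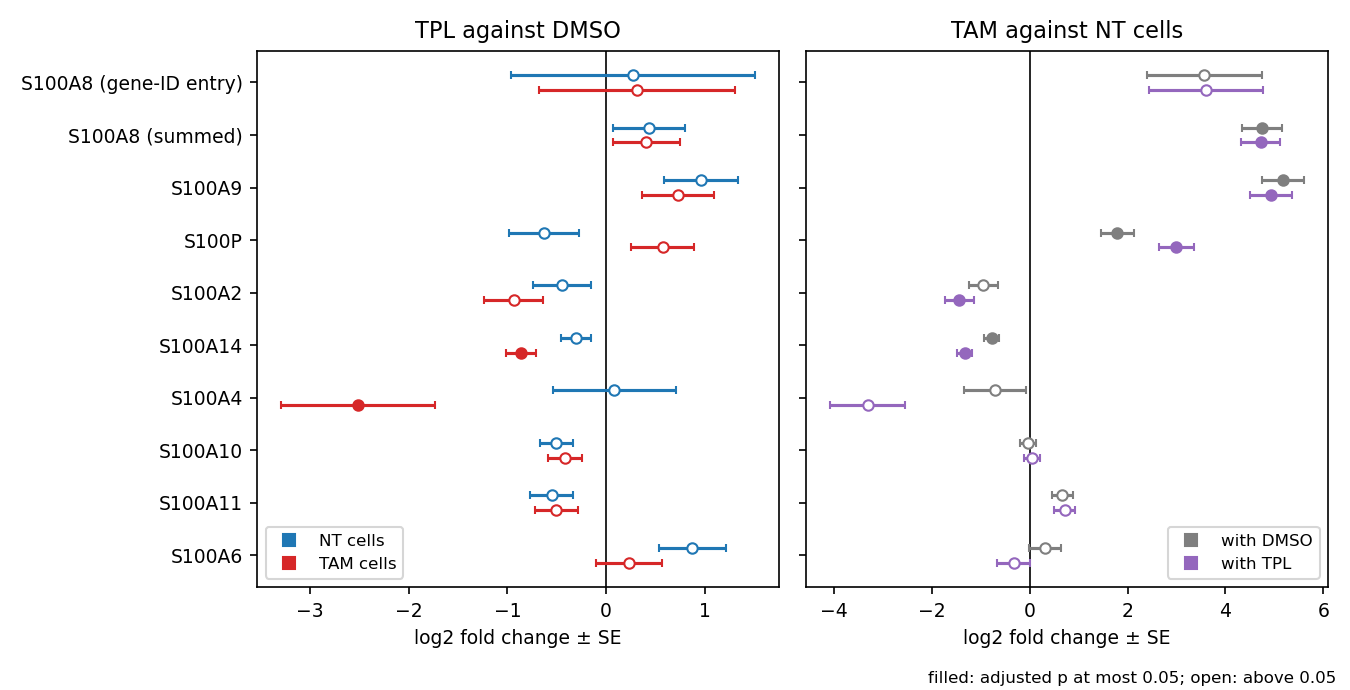
Log2 fold change ± SE of the 9 members tested, with S100A8 also for its summed entries, for TPL against DMSO in NT and TAM cells (left) and for TAM against NT cells under either treatment (right), with filled points where the adjusted p is at most 0.05. S100A8, S100A9 and S100P lie far to the right in the comparison of cell types, S100A2, S100A14 and S100A4 to the left, and the TPL changes lie mostly within 1 log2 unit of 0.

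The median log2 fold change over the 9 members tested was -0.31 for TPL in NT cells, with -0.42 for it in TAM cells, beside 0.09 and 0.05 over all genes. Between TAM and NT cells it was 0.32 with DMSO and 0.05 with TPL, beside -0.03 and -0.02 over all genes.

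Of 10 other S100 genes searched for, 9 had an entry and 5 were tested. S100A16, the neighbour of S100A14, was the gene of the family with the clearest response to TPL: it measured 1069 and 888 FPKM in NT, 361 and 334 in NT+TPL, 830.3 and 867 in TAM, with 416 and 398 in TAM+TPL. It was called lower in NT cells (log2 fold change -1.502 ± 0.14, adjusted p = 5.60e-04, edgeR) and fell in TAM cells (-1.11 ± 0.14, adjusted p = 0.00168). S100A3 fell with TPL in TAM cells, where it had 18.1 and 17.4 FPKM with DMSO and 3.73 and 3.25 with TPL (-2.39 ± 0.35, adjusted p = 0.00322), and in NT cells its change was -0.86 ± 0.33 (adjusted p = 0.0797). S100A1, a gene best known from muscle, rose with TPL from 1.91 and 1.91 to 10.5 and 6.12 FPKM in NT cells and from 2.05 and 1.85 to 8.26 and 7.15 in TAM cells, by 2.09 ± 0.45 and 1.92 ± 0.44 (adjusted p of 0.0119 and 0.0175). S100A13 measured from 53.6 to 138 FPKM and did not pass in either by gene ID (0.84 ± 0.29 in NT cells, adjusted p = 0.0564). Of the 5 tested, 0 differed between TAM and NT cells at 0.05 in the edgeR fit by gene ID, with 0 at an unadjusted p under 0.05 with DMSO and 1 with TPL. In the edgeR fit with summed entries S100A3 was lower in TAM than in NT cells with TPL (-1.43 ± 0.36, adjusted p = 0.0224). With TPL in NT cells S100A13 rose and S100A3 fell in that fit, at adjusted p-values of 0.0191 and 0.0399.

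Of 15 partners and receptors of S100 proteins, 15 were tested. With TPL in NT cells 3 rose (higher: 17.2% of all genes) and 5 fell (lower: 19.8%). In TAM cells 0 rose (higher: 2431 of 16948 genes) and 3 fell (lower: 18.6% of all genes). MYD88, the adaptor of Toll-like receptors, was at 25.5 and 28.9 FPKM in NT, 8.70 and 6.71 in NT+TPL, 70.7 and 76.8 in TAM, with 14.6 and 16.9 in TAM+TPL. It was called lower with TPL in both cell types (log2 fold changes of -1.79 ± 0.17 and -2.26 ± 0.17, adjusted p of 6.52e-04 and 3.87e-04, edgeR) and rose in TAM over NT cells with DMSO (1.44 ± 0.16, adjusted p = 0.00326). CACYBP, the partner of S100A6, fell with TPL in both (-1.11 ± 0.18 and -1.01 ± 0.18). AGER, a receptor of S100 ligands, rose with TPL in NT cells (1.62 ± 0.43, adjusted p = 0.0255) at a level of at most 3.10 FPKM. EZR, the ezrin bound by S100P, fell with TPL in NT cells (-0.95 ± 0.15) and also in TAM against NT cells with DMSO (-1.08 ± 0.15). TLR4, a receptor of calprotectin, reached at most 0.35 FPKM. Of the 5 annexins, ANXA1, the partner of S100A11, fell with TPL in NT cells (-0.79 ± 0.14, adjusted p = 0.00668) and rose in TAM over NT cells with TPL (0.79 ± 0.14, adjusted p = 0.0228). ANXA11 fell with TPL in both cell types (-0.83 ± 0.19 and -0.72 ± 0.19), and ANXA6 fell in TAM against NT cells with TPL (-2.03 ± 0.29). ANXA2 and ANXA5 passed none of the 4 comparisons.

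Neighbours from the epidermal differentiation complex were compared between the cell types as well. Of 15 genes of the complex, 13 had an entry and 7 were tested. In TAM over NT cells 0 rose and 0 fell with TPL, while 0 rose and 1 fell with DMSO. Over all genes 2.83% rose with TPL and 3.46% with DMSO, while 4.21% and 3.39% fell. The median log2 fold change of the 7 was 0.39 with TPL and -2.13 with DMSO. The gene that fell, SPRR2D, a small proline-rich protein of the cornified envelope, was at 46.2 and 46.8 FPKM in NT, 3.73 and 0.40 in NT+TPL, 3.35 and 4.81 in TAM, with 3.77 and 1.69 in TAM+TPL (TAM over NT with DMSO -3.51 ± 0.76, adjusted p = 0.0407, edgeR; TPL in NT cells -4.49 ± 0.81, adjusted p = 0.00643). With TPL in NT cells 3 of the 7 fell (lower: 19.8% of all genes), SPRR2D, SPRR2A (-4.01 ± 1.15) and SPRR2E, the last from 11.3 and 10.9 counts to 0 and 0, at least 3.48-fold lower. These SPRR2 genes are near copies of each other and their counts are uncertain. FLG, filaggrin, rose from 0 and 0 counts in NT to 15 and 7 in NT+TPL, at least 3.90-fold higher, and from 5 and 0 in TAM to 39 and 37 in TAM+TPL, a level of at most 0.40 FPKM.

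Of 12 regulators and cytokines known for S100 genes, all tested, 6 fell (lower: 19.8% of all genes) and 1 rose (higher: 17.2%) with TPL in NT cells. In TAM cells 7 fell (lower: 18.6% of all genes). In each cell type 4 were called lower, where 460 (NT cells) and 345 (TAM cells) of 16948 genes were. The gene that rose was STAT3, a transcription factor of cytokine signalling (0.56 ± 0.13, adjusted p = 0.0187, edgeR), and in TAM cells its change was 0.41 ± 0.13 (adjusted p = 0.0551). KLF4, a factor of epithelial differentiation, did not pass by its gene ID entry (0.12 ± 0.25 and 0.27 ± 0.25). IL1B measured 154 and 142 FPKM in NT, 6.12 and 6.82 in NT+TPL, 65.7 and 81.1 in TAM, with 10.2 and 5.51 in TAM+TPL (log2 fold changes with TPL of -4.52 ± 0.31 and -3.27 ± 0.29). TP63, which is also counted among the epithelial markers, fell by 5.31 and 5.04 on the log2 scale in NT and TAM cells, and GRHL3, a factor of epidermal differentiation, by 5.42 and 2.24. IL6 had 29 and 22 counts in TAM, with 0 and 1 in TAM+TPL. Between TAM and NT cells with DMSO 1 of the 12 rose, CEBPB (1.25 ± 0.26, adjusted p = 0.0340, edgeR), and 1 fell, GRHL3. Under TPL 0 of the 12 rose and 0 fell between the cell types. The mean level of CEBPB with DMSO was 36.6 FPKM for NT cells and 86.1 FPKM for TAM cells. After TPL these means were 14.8 and 13.1 FPKM, and the libraries of the cell types overlapped. A link of CEBPB to S100A8 and S100A9 was not tested.

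Over the 8 libraries, the mean log2(FPKM + 1) of S100A8 and S100A9 was most closely followed by STMN3 (Pearson r = 0.974), TMSB4X (0.972), OLAH (0.970), MT2A (0.968) and TNFRSF6B (0.967) among 5505 other genes with a mean of at least 10 FPKM, of which 72 reached an r of 0.9. S100A8 entered this mean by its gene ID entry alone, not by its summed entries. The 8 points are 4 pairs of replicates, and the coefficients describe mostly the step between NT and TAM cells. STMN3, a stathmin that binds tubulin, was between 5.01 and 7.16 FPKM in the 4 NT libraries and between 39.5 and 46.2 in the 4 TAM libraries. OLAH, a thioesterase of fatty acid synthesis, went from 1.24 and 0.71 in NT to 35.1 and 39.3 in TAM, with 69.0 and 72.6 in TAM+TPL. TNFRSF6B, the decoy receptor of Fas ligand, measured 45.3 and 33.3 in NT, 58.3 and 113 in NT+TPL, 1313 and 1296 in TAM, with 2799 and 2668 in TAM+TPL. In these last 2 genes, as in S100A9, both TAM+TPL libraries were above both TAM libraries.

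The RNAPII lists give, for each condition, the peaks that hold a TSS, as start and end positions without height or replicate, so differences between lists carry no test. The canonical TSS of 6 of 10 members lay in a peak in NT (47.7% of 19869 protein-coding genes did), of 2 in NT+TPL (38.2%), of 7 in TAM (42.1%) and of 4 in TAM+TPL (37.4%). By the peak names, the TAM list was called at a cutoff of 0.1 and the other 3 at 0.02, and only the TAM list has peaks split into lettered parts, so its peaks and widths were not made alike. The role of that cutoff in the differences below was not tested.

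S100A8 had a peak over its TSS in TAM (3276 bp) and in TAM+TPL (310 bp), and none in NT and NT+TPL. The second of these peaks comes from a list with the same cutoff as the NT lists. S100A9 had a peak in all 4 lists, 368 bp wide in NT, 213 bp in NT+TPL, 5039 bp in TAM, with 553 bp in TAM+TPL. In TAM the peaks of both genes ran from upstream of the start past the end of the gene: that of S100A9 covered chr1:153329984-153335022, and the gene ends at 153333499. In the other 3 lists the S100A9 peak stopped within 280 bp of the start.

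Among the other members, S100A11 and, in TAM cells, S100A10 had a longer peak with DMSO than with TPL, and the rest had no peak over the TSS with TPL. S100A11 had peaks of 5868 bp in NT and 7115 bp in TAM, and of 697 and 1085 bp with TPL. S100A10 had 2591 bp in NT, 2655 bp in TAM and 279 bp in TAM+TPL, with none in NT+TPL. S100A2 (10565 bp in NT and 8632 bp in TAM) and S100A6 (4738 and 3793 bp) had a peak over the TSS with DMSO alone, although a 199 bp peak lay within 1 kb of the S100A2 start in TAM+TPL. S100A14 shared a peak of 14376 bp with S100A16 in NT and had its own of 573 bp in TAM, and it had none with TPL. S100A4, S100A7 and S100P had no peak over the canonical TSS in any list, S100P also at its TAM level of 45.3 and 52.6 FPKM, and a 408 bp peak in NT lay at another TSS of S100A4, near S100A3.

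At a width of at least 2000 bp, chosen after the widths were seen, 5 of the 6 members with a peak in NT and 6 of the 7 in TAM had a wide one, beside 7.96% and 3.62% of all protein-coding TSSs in a peak. With TPL 0 of 2 members and 0 of 4 had one, beside 3.03% and 1.91%. The median width of a peak at a protein-coding TSS was 722 bp in NT and 485 bp in TAM, and with TPL it was 643 bp and 518 bp. Several members are neighbours and S100A14 shares its NT peak with S100A16, so the members are not independent of each other.

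**Figure D4:**
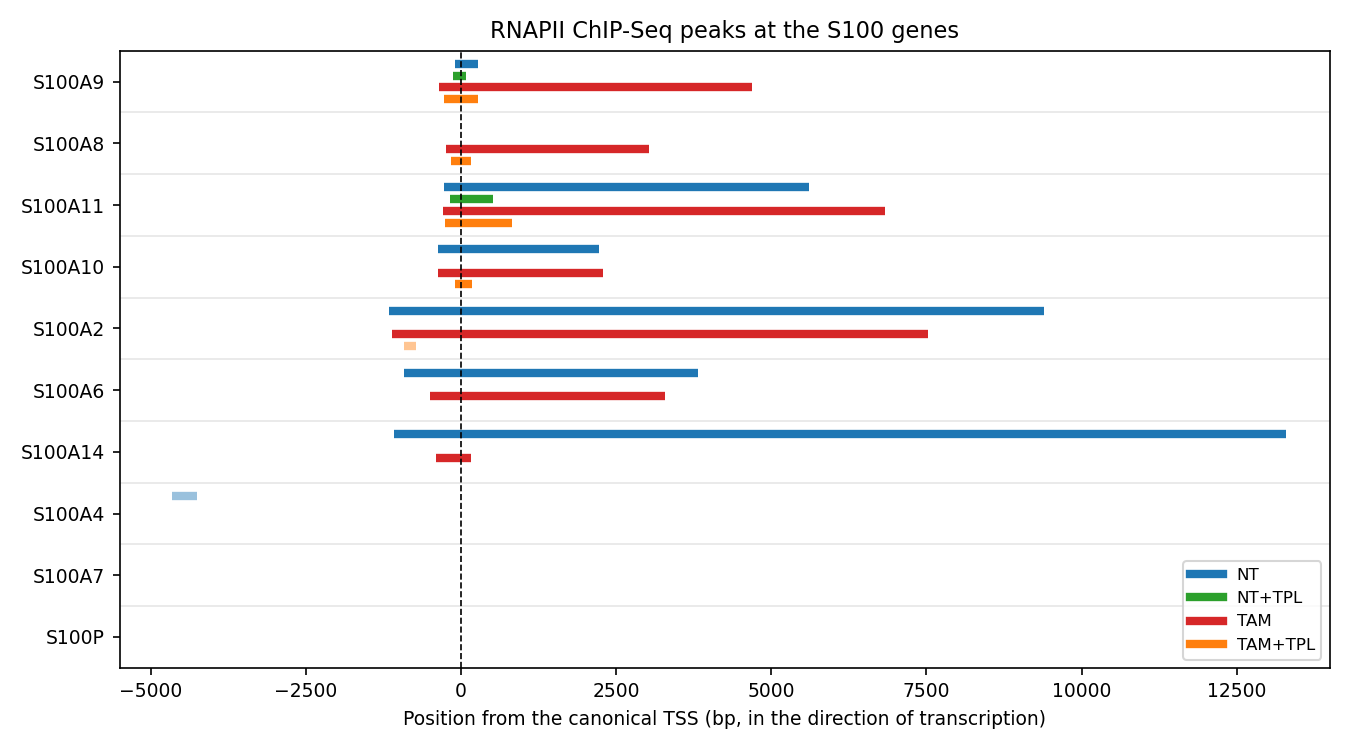
Extent of the RNAPII peaks at the 10 members in the 4 conditions, as distance from the canonical TSS in bp along the direction of transcription, with pale bars for peaks that miss the canonical TSS. Peaks in NT and TAM mostly reach several kilobases into the gene, those in NT+TPL and TAM+TPL stay within 1085 bp or are missing, and S100A8 has peaks in the TAM lists alone.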

How the data were processed

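RNA-Seq libraries of 4 conditions (2 per condition, described as independent biological replicates) and 4 lists of RNAPII peaks were used. From poly-A RNA, the authors obtained expected counts with Bowtie2 and RSEM and deposited them without normalization. The FPKM values were deposited by the authors from the same alignments, scaled to transcript length and to mapped reads. The authors mapped the ChIP reads to hg19, called peaks over input with MACS 1.4.2 (per the labels) and kept peaks holding a TSS. The lists give starts and ends only, and how replicates were combined is not given in the sources used here.

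Entries missing from a library were taken as 0. Expected counts were rounded and tested in edgeR 4.0.16 (R 4.3.3; quasi-likelihood test after TMM scaling and filterByExpr, with Benjamini-Hochberg adjustment) in 1 fit of 4 groups over 16948 genes, with contrasts between conditions. Libraries are few, and p-values rest on the spread between 2 replicates per condition. On simulated counts with 100 genes changed by a log2 fold change of 2, 28 (NT cells) and 22 (TAM cells) were called with TPL over 16948 genes, and at 3 it was 86 and 92. The simulation gave all genes the same spread (dispersion of 0.099) and changed only genes above a minimum level. Its shares are therefore not those of a given member. Peaks were matched to TSSs of GENCODE release 44 on GRCh37, the build of hg19. The pairing of replicate numbers was checked and not found. Alternatives were DESeq2 1.42.0, limma 3.58.1 on log2(FPKM + 1) or log2(FPKM + 0.1), other scalings and filters, a replicate block, summed entries and leaving out each library. Members, lists and tests were chosen with earlier results of these data known. The genes named outside the members are those of 1 FPKM or more (other S100 genes), up to 4 per list with the largest changes among those at an adjusted p of at most 0.05 with TPL, and the 5 nearest patterns, and markers, annexins, STAT3, KLF4, CEBPB and TLR4 beyond this rule were added after their values were seen. Plots used matplotlib 3.10.9.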

Additional observations from a re-analysis of the deposited data

How the results depend on the processing

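At the strict threshold no member was called in the 4 comparisons of conditions or in the difference between the TPL effects. Both TPL comparisons and the difference stayed at 0 members in every alternative that keeps this adjusted p. Several of these alternatives, the replicate block among them, called 0% of all genes with TPL, so 0 members was the only possible outcome there. DESeq2 called 15.1% (NT cells) and 13.4% (TAM cells) of all genes with TPL, and the fit with summed entries 12.7% and 11.2%. For the difference DESeq2 called 0.983% of all genes, against 0% in the main fit. Between TAM and NT cells with DMSO, DESeq2 and the fit with summed entries each called 2 members, and DESeq2 size factors, library size alone, no filter, a filter of 10 counts in every library, a fit over the 2 groups and limma with a pseudocount of 1 or 0.1 each called 1, S100A9. With TPL in both cell types, DESeq2 and summed entries each called 4, the filter of 10 counts called 3, and no filter and limma with either pseudocount called 1. At an adjusted p of 0.05 without a minimum fold the counts were 2 for TPL in TAM cells, 3 between the cell types with DMSO and 4 between them with TPL. The share of all genes called moved with these settings too, with DMSO from 0.397% (2 groups) to 4.48% (DESeq2) and with TPL from 0.659% (no filter) through 2.18% (filter of 10 counts) to 4.20% (DESeq2), against 0.655% and 0.596%. Leaving out a library gave between 0 and 1 called members in each comparison of cell types, and a group left with 1 library is then assumed to vary like the others.

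The direction of some changes near 0 turned. With GAPDH as the reference, S100A4 (-0.26) and S100A8 by its gene ID entry (-0.00074) with TPL in NT cells, S100A6 in TAM over NT cells with DMSO (-0.15) and S100A10 with TPL (-0.19) were negative. For S100A8 with TPL in NT cells limma gave -0.87 with a pseudocount of 1, filtered or not, and -2.38 with 0.1. The summed entries are given above. Leaving out a library gave ranges of the log2 fold change from -0.019 to 0.19 for S100A4 and from -7.89 to 1.28 for S100A8 with TPL in NT cells, from -0.57 to 0.87 for S100A8 with TPL in TAM cells, from -0.18 to 0.11 for S100A10 in TAM over NT cells with DMSO, from -0.051 to 0.22 for S100A10 and from -0.73 to 0.34 for S100A6 with TPL, and from -0.71 to 0.49 for the difference of S100A9. NT+TPL replicate 2 is behind the turn of S100A6 (0.34 without it) and of the difference of S100A9 (0.49 without it). The causes were not tested. Over the single-gene values, 712 of 825 alternatives kept direction and side of 0.05.

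With the replicate number as a block, 0 members were called in each comparison, S100A9 kept adjusted p-values of 0.00446 and 0.00484 between cell types, and S100P and S100A14 with DMSO moved to 0.0510 and 0.0520, and S100A2 with TPL to 0.0565. Over all genes the block gave 0 calls with TPL in each cell type, against 666 and 488 without it, while DESeq2 called 956 higher and 1598 lower in NT cells. The numbers share no stated batch, and deviations of same-numbered libraries correlated between -0.41 and 0.18, so the block is no paired result. The peak counts stayed within 1 member of those given when any annotated TSS or a distance of 1 kb was used. The peak lists hold no score, so no stricter cutoff could be set. At this depth S100A4 and S100A7 were limited by counting.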
